A study of Mus musculus with 4 samples.

Results

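The transcripts of 40 cell cycle and DNA replication genes were compared between peritoneal B1a cells and splenic follicular B (B2) cells of wild-type mice. The genes were listed for their roles in S phase and mitosis, with earlier results of these data known. All 40 were found among the 20599 gene symbols of the deposited tables. They were divided by function into 16 genes of DNA replication and 24 genes of mitosis, and the 2 groups are described apart.

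A cell that leaves the resting state first loads the MCM helicase onto replication origins, with the loading factors CDC6 and CDT1, while E2F transcription factors and cyclin E drive the entry into S phase and the synthesis of nucleotides. Later, FOXM1 and the loss of repression by the DREAM complex permit the expression of the mitotic cyclins, kinases, kinesins and kinetochore proteins. Mature B2 cells are largely quiescent until they meet antigen, whereas peritoneal B1a cells are known for their maintenance by self-renewal.

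RNA-Seq libraries were available from peritoneal B1a cells (n = 2) and follicular B2 cells (n = 2) of wild-type C57BL/6 mice, all given as 4 weeks old in the labels. The methods give the same age for the B1a donors but a later age for the B2 donors. A supplementary figure legend on RNA-Seq reads gives 4 weeks for both cell types. By the methods, B1a cells were sorted from peritoneal washes by a gate that includes CD23- IgM+ CD5+. B2 cells were sorted from spleens by one that includes IgDhi IgMlo CD21+. The methods also state a smaller and more variable cell number for B1a. Cell type, tissue, gate, cell input and, by the methods, age all changed together here, and their parts cannot be told apart. The donors were littermate controls of Dnmt3a-deficient mice, and those mutant libraries were not analysed here.

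The libraries held 11578785 and 11558489 counts for B1a replicates 1 and 2, and 11032732 and 18588623 counts for B2 replicates 1 and 2. A floor of 3 counts corresponded to between 0.157 and 0.270 CPM (the count per library total after TMM scaling). Floors and counting intervals cover counting error only, since PCR copies of 1 molecule were not told apart. Genes with a count numbered 11290 and 12456 in B1a replicates 1 and 2 and 14223 and 12934 in B2 replicates 1 and 2. All 6 B cell markers were above the floor in every library, with summed levels of 6060 to 6933 CPM. The summed level of the 5 B1a markers was 1182 and 893 CPM in B1a and 75.8 and 75.3 CPM in B2 cells, and that of the B2 markers Fcer2a and Cr2 was 162 and 153 CPM in B1a and 1902 and 1942 CPM in B2 cells, so that both labels matched their markers.

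Promoter sequences are shown for 3 mitosis and 3 replication genes, because the groups differ in the motifs before their starts: Mki67, Cdc20 and Top2a stand for the first, and Mcm6, Mcm3 and Tyms for the second. Each line gives the 150 bases before the outermost RefSeq start, 5′ to 3′ on the gene's strand (GRCm38.p6), and capitals mark matches, on either strand, to the CHR element TTTGAA, the CCAAT box, and the E2F sites TTTCCCGC and TTTGGCGC.
Mki67: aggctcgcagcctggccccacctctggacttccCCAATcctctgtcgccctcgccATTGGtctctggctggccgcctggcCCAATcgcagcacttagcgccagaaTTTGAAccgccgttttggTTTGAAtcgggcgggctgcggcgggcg
Cdc20: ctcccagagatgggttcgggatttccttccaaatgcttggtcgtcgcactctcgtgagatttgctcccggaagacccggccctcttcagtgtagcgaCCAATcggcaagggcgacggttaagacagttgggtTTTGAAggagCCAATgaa
Top2a: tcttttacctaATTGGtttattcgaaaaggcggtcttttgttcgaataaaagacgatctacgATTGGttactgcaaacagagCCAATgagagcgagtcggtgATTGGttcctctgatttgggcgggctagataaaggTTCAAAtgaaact
Mcm6: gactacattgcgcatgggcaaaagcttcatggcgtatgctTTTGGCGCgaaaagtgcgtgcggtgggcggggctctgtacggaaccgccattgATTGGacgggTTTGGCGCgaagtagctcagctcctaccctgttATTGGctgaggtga
Mcm3: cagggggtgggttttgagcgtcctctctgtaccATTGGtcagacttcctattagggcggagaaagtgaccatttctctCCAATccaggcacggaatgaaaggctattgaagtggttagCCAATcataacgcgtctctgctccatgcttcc
Tyms: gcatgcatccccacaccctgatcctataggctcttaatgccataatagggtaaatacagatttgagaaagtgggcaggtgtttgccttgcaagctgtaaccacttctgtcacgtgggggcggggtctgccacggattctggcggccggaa
The intervals are chr7:135716451-135716600, chr4:118437344-118437493, chr11:99024200-99024349, chr1:128359706-128359855, chr1:20820313-20820462 and chr5:30073646-30073795, all on the minus strand. Within 250 bases before the start, the RefSeq table held windows for 13 replication and 19 mitosis genes. The CHR element occurred in 8 of the 19 mitosis genes and 1 of the 13 replication genes, against 16% of 32851 windows of the same length. The CCAAT box occurred in 16 of 19 and 8 of 13 genes, against 33.8% of all windows. An E2F site of these letters occurred in 0 of 19 and 4 of 13 genes, against 1.3% of all windows. In the 6 sequences shown the matches do not overlap each other, and a match describes the sequence and is not a measured site.

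Mki67, a marker of cycling cells, was the 1 member called by edgeR and was 3.01-fold higher in B1a cells. Tyms, Pcna, Cdt1 and the MCM subunits measured between 16.3 and 718 TPM in every library, without a called difference. By edgeR's quasi-likelihood test, adjusted over 12078 genes by the Benjamini-Hochberg method, 0 of 15 tested replication genes were called in either direction and 1 of 23 tested mitosis genes, Mki67, at an adjusted p under 0.05. Over all genes tested, 4.24% were called higher in B1a and 1.5% higher in B2 cells, and the members' counts were close to these shares. All genes split into 512 higher and 181 lower in B1a cells by this test and into 266 higher and 233 lower with limma on log2(TPM + 1). Without adjustment, 2 replication genes (Cdc6 and Ccne1) and 4 mitosis genes (Mki67, Cdc20, Bub1b and Kif20a) had a p under 0.05, against 20.9% of all genes tested. DESeq2 called 2 replication genes (Cdc6 and Ccne1, higher in B1a) and 2 mitosis genes (Mki67, higher, and Cdc20, lower in B1a), where 12.9% of all genes were called in either direction. limma-voom called 1 replication gene (Ccne1) and 1 mitosis gene (Mki67), against 7.26% of all genes. Gins2 and Bub1 had too few counts to pass the filter. The median log2 fold change of B1a over B2 was -0.10 over the replication genes (0.043 with at least 10 counts in every library) and 0.27 over the mitosis genes (-0.06 with limma on log2(TPM + 1), and -0.095 without B1a replicate 1 against 0.55 without B1a replicate 2), against -0.03 over all genes tested, and the second median was the same with Cdc20 set at its bound. In bulk RNA a difference in the share of cycling cells and a difference in RNA per cell cannot be told apart.

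The 6 subunits of the MCM2-7 helicase, which unwinds DNA at the replication fork, were present in every library at between 16.3 and 67 TPM, a level scaled by transcript length. The most and the least abundant subunit were 4.11- and 2.86-fold apart in B1a replicates 1 and 2, and 1.3- and 2.22-fold apart in B2 replicates 1 and 2. Mcm5 was the lowest subunit in both B1a libraries and in B2 replicate 2, Mcm6 the highest in both B1a libraries, and Mcm7 the highest in both B2 libraries. Mcm6 measured 82.1 and 62.6 CPM in B1a and 51.7 and 46.6 CPM in B2 cells. The groups did not overlap, and the log2 fold change was 0.56 (95% interval -0.04 to 1.16, adjusted p = 0.27 in edgeR's test). Mcm5 went the other way, with 23.6 and 26.1 CPM in B1a and 55.3 and 32.2 CPM in B2 cells, and its log2 fold change was -0.82 (-1.71 to 0.07, adjusted p = 0.279 in edgeR's test). Mcm3 measured 61.3 and 57.5 CPM in B1a and 48.0 and 46.9 CPM in B2 cells, also without overlap. In TPM the groups of Mcm3 overlapped, with 50.3 and 46.0 in B1a and 46.3 and 44.6 in B2 cells. Its log2 fold change was 0.081 with limma on log2(TPM + 1). The change of Mcm3, 0.32 (-0.23 to 0.87), is bounded by its interval to less than 1 on the log2 scale. Mcm2 measured 47.4 and 31.6 against 47.6 and 48.1 CPM, Mcm4 79.2 and 37.9 against 51.4 and 50.8 CPM, and Mcm7 37.6 and 49.2 against 43.5 and 49.7 CPM. Among these, Mcm4 differed 2.09-fold between the B1a replicates and its log2 fold change of 0.20 turned to -0.13 with limma on log2(TPM + 1).

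Of the factors that load and start the helicase, Cdt1 was steady and Cdc6 was not. Cdt1 measured 66.1 and 47.5 CPM in B1a and 65.0 and 58.1 CPM in B2 cells, with a log2 fold change of -0.12 (95% interval -0.75 to 0.52). Cdc6, which recruits MCM to origins (chr11:98907709-98923942), measured 24 and 2.97 CPM in B1a and 0.867 and 1.46 CPM in B2 cells. Both B1a libraries were above both B2 libraries, but they differed 8.1-fold from each other, and the log2 fold change of 3.52 (0.42 to 6.61) had an adjusted p of 0.189 in edgeR's test and 0.0244 in DESeq2. Gins2, a subunit of the GINS complex that activates the helicase, measured 0 and 0.54 CPM in B1a and 1.75 and 0.732 CPM in B2 cells, from at most 20.2 counts in a library.

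Pcna, the sliding clamp of the replicative polymerases, and Tyms, which makes thymidylate, were the 2 most abundant members in both cell types. Tyms measured 585 and 494 TPM in B1a and 718 and 653 TPM in B2 cells and made up between 48.2% and 56.5% of the summed TPM of the 16 replication genes. On the CPM scale Tyms had 944 and 816 in B1a and 985 and 910 in B2 cells, and its log2 fold change of -0.11 (95% interval -0.40 to 0.19) was the most precise of all members. RSEM gave Tyms the largest posterior standard deviations of the members, such as 43.8 counts beside 9080 in B1a replicate 2. Values were added up per gene symbol, and the transcript forms that gave the Tyms reads were not tested. Pcna followed with 120 and 176 TPM in B1a and 108 and 148 TPM in B2 cells, and its groups overlapped. The subunits of ribonucleotide reductase, which supplies deoxynucleotides, lay far apart: the large subunit Rrm1 measured 15.6 and 32.7 TPM in B1a and 35.9 and 39.0 TPM in B2 cells, and the small subunit Rrm2 measured 2.36 and 8.36 TPM in B1a and 4.47 and 4.05 TPM in B2 cells. Rrm1 exceeded Rrm2 in every library, by 3.91- to 9.62-fold, and Tyms exceeded Rrm2 by 59.0- to 248-fold. Neither subunit was called, with log2 fold changes of -0.39 (-1.36 to 0.59) for Rrm1 and 0.58 (-2.25 to 3.42) for Rrm2, and both were higher in B1a replicate 2 than in replicate 1. Without Tyms, the summed level of the replication genes was 531 TPM in each B1a library and 552 and 553 TPM in the B2 libraries.

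Ccne1 and Ccne2 encode cyclin E, the partner of CDK2 at the start of S phase. Ccne1 (chr7:38097984-38107490) measured 34.6 and 29.7 CPM in B1a and 14.1 and 5.65 CPM in B2 cells. The groups were separate, and the log2 fold change of 1.71 (SE 0.55, 95% interval 0.37 to 3.05) had an adjusted p of 0.154 in edgeR's test. Across 10 other fits of the 4 libraries its adjusted p lay between 0.00431 and 0.168 and it was called in 4, DESeq2, both limma-voom fits and the replicate block. Ccne2 measured 0 and 3.61 CPM in B1a and 4.07 and 4.29 CPM in B2 cells. Its estimate is uncertain, since RSEM gave a posterior standard deviation of 8.39 counts beside the 0 counts of B1a replicate 1 and of 9.86 beside 40.2 counts in replicate 2. E2f1, a transcriptional activator of S-phase genes, measured 10.9 and 18.7 CPM in B1a and 20.8 and 24 CPM in B2 cells, with a log2 fold change of -0.60 (-1.74 to 0.54). Across the replication genes, 4 of 15 had both B1a libraries above both B2 libraries in CPM and 4 of 15 the reverse, against 25.3% and 29.1% of all genes tested.

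**Figure D1:**
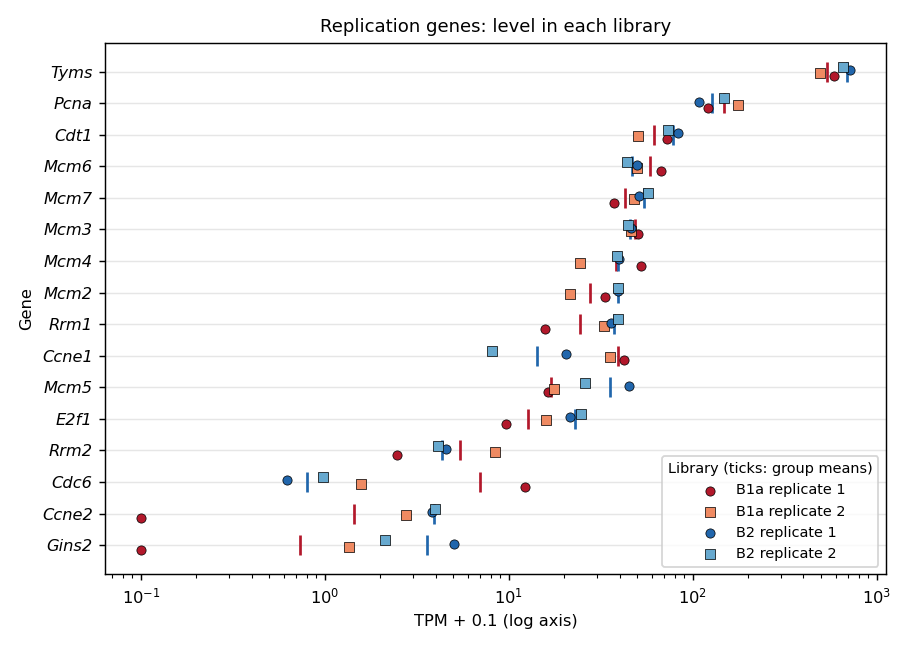
Level of each of the 16 replication genes in each of the 4 libraries (TPM + 0.1 on a log axis, points are libraries, vertical ticks are group means of 2 libraries). Tyms and Pcna lie above all others, the MCM subunits between 16.3 and 67 TPM, and Ccne1 and Cdc6 are the genes whose B1a points lie to the right of their B2 points by the widest margin.

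Among the mitosis genes, Mki67, which encodes the Ki-67 protein that coats mitotic chromosomes and marks cycling cells, was the gene that passed the test (chr7:135689784-135716450). Mki67 measured 105 and 87.5 CPM in B1a and 23.4 and 40.5 CPM in B2 cells, or 96.4 ± 12.6 and 32.0 ± 12.1 (SD, n = 2). The lower B1a library was above the higher B2 library, and the log2 fold change was 1.59 (SE 0.32, 95% interval 0.80 to 2.38, adjusted p = 0.0488 in edgeR's test). The call lay close to the threshold: over 10 other fits of the 4 libraries the adjusted p ranged from 3.71e-05 to 0.183, and 4 of them, with upper quartile factors, unsummed gene entries and both TPM fits, did not call it. Without B2 replicate 1 it was not called either, with an adjusted p of 0.169. Top2a, the topoisomerase that untangles sister chromatids, measured 36.9 and 34.2 CPM in B1a and 14.7 and 24.1 CPM in B2 cells. The groups of Top2a were separate as well, but its log2 fold change of 0.88 (-0.06 to 1.81) had an adjusted p of 0.271 in edgeR's test.

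Of the cyclins and the kinase that drive mitotic entry, none was called by edgeR, and the estimates took both signs. Ccna2, cyclin A2 of S phase and G2, measured 13.6 and 7.08 CPM in B1a and 2.55 and 4.16 CPM in B2 cells, with a log2 fold change of 1.63 (95% interval -0.56 to 3.8). Cdk1, the mitotic kinase itself, measured 0.896 and 0.27 CPM in B1a and 1.83 and 1.52 CPM in B2 cells, from 3 to 29 counts in a library. Its partner Ccnb1 (cyclin B1) had 2 counts over both B1a libraries and 40 over both B2 libraries, a ratio of B1a to B2 of 0.0688 per library total (exact 95% interval 0.00806 to 0.265, counting error only), and an adjusted p of 0.394 in edgeR's test. Ccnb2 (cyclin B2) measured 5.11 and 0 CPM in B1a and 2 and 4.03 CPM in B2 cells. The cyclin A2 and B1 values therefore lay on opposite sides of the B2 values, and those of cyclin B2 on both sides. The 95% intervals of the log2 fold change also included 0 for Cdk1 (-5.3 to 2.3), Ccnb1 (-8.7 to 1.4) and Ccnb2 (-5.3 to 4.8).

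Of the spindle checkpoint and its target, Bub1b and Cdc20 were low in B1a cells. Cdc20, the activator of the anaphase-promoting complex (APC/C) at the metaphase to anaphase transition (chr4:118432901-118437343), had 0 counts in both B1a libraries and measured 4.42 and 5.78 CPM in B2 cells. The B2 mean of Cdc20 was 18.9-fold above the floor of 3 counts in a B1a library, 0.27 CPM, which covers counting error only. The 95% interval of its log2 fold change ran from -14.5 to -3.64 in edgeR's fit. Its adjusted p was 0.0923 in edgeR's test and 0.00208 in DESeq2. Bub1b, which encodes the checkpoint protein BUBR1, measured 1.88 and 0.629 CPM in B1a and 9.63 and 8.52 CPM in B2 cells, and its log2 fold change was -2.84 (-5.54 to -0.15, adjusted p = 0.217 in edgeR's test). Both genes had B1a libraries below both B2 libraries. Bub1, a kinase of the same checkpoint, was at 0 and 0.629 CPM in B1a and at 0.593 and 0 CPM in B2 cells, at most 7 counts in a library. Ube2c, the ubiquitin-conjugating enzyme of the APC/C, measured 14.2 and 11.8 CPM in B1a and 9.05 and 7.31 CPM in B2 cells.

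The mitotic kinases differed more between the B1a libraries than between the cell types. Plk1 (polo-like kinase) measured 23.9 and 5.84 CPM in B1a and 8.30 and 7.37 CPM in B2 cells. Aurka, the spindle pole kinase, measured 0 and 3.15 CPM in B1a and 5.29 and 2.77 CPM in B2 cells. Aurkb, the kinase of the chromosomal passenger complex, measured 2.06 and 9.53 CPM in B1a and 3.99 and 5.65 CPM in B2 cells. B1a replicate 1 was thus the higher one for Plk1 and the lower one for both aurora kinases, and all 3 genes overlapped between the cell types. Birc5 (survivin), a partner of Aurkb, measured 69.8 and 30.8 CPM in B1a and 45.7 and 49.6 CPM in B2 cells. The B2 values of Birc5 fell between the B1a values, and its log2 fold change of 0.08 (95% interval -0.93 to 1.09), like that of Aurkb, 0.27 (-2.45 to 2.98), changed sign with limma-voom and with limma on TPM.

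Spindle motors and bundling proteins were detected in every library, and 4 of the 6 described here were highest in B1a replicate 1. Kif11, the motor that separates the spindle poles, measured 40.6 and 8.47 CPM in B1a and 15.0 and 16.5 CPM in B2 cells. Kif20a, a motor of the central spindle, measured 23.1 and 8.32 CPM in B1a and 4.40 and 3.69 CPM in B2 cells, with a log2 fold change of 1.95 (95% interval 0.02 to 3.87, adjusted p = 0.235 in edgeR's test). Kif23, of the centralspindlin complex, measured 6.63 and 8.99 CPM in B1a and 5.99 and 5.28 CPM in B2 cells. For Kif20a and Kif23 the groups were separate, and for Kif11 they overlapped. Tpx2, which activates Aurka on spindle microtubules, was the most abundant mitosis gene in B1a cells, with 59.5 and 31.9 TPM against 32.4 and 30.9 TPM in B2 cells. On the CPM scale its log2 fold change was 0.76 (-0.03 to 1.56, adjusted p = 0.258 in edgeR's test). Nusap1, a microtubule-bundling protein, measured 15.3 and 4.23 CPM in B1a and 2.20 and 3.29 CPM in B2 cells, with a log2 fold change of 1.83 (-0.72 to 4.37). Prc1, which bundles the midzone microtubules, lay the other way with 18.4 and 22.2 CPM in B1a and 25.2 and 27.7 CPM in B2 cells, and its log2 fold change was -0.38 (-1.27 to 0.50).

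At the kinetochore, where chromosomes meet the spindle, Cenpf measured 9.35 and 8.20 CPM in B1a and 9.71 and 7.77 CPM in B2 cells, with an interval of the log2 fold change from -1.69 to 1.69. Cenpe, the kinetochore motor, measured 8.88 and 2.79 CPM in B1a and 8.07 and 8.31 CPM in B2 cells. Nuf2, of the NDC80 complex that holds the microtubule, measured 0.188 and 8.28 CPM in B1a and 7.11 and 7.93 CPM in B2 cells. Nuf2 in B1a replicate 1 was under the floor, while the other 3 libraries lay close together. Foxm1, the transcription factor of the late cell cycle genes, measured 25.1 and 13.1 CPM in B1a and 9.63 and 12.3 CPM in B2 cells, with a log2 fold change of 0.80 (95% interval -0.54 to 2.14). Of the 23 tested mitosis genes, 9 had both B1a libraries above both B2 libraries in CPM and 5 the reverse, against the 25.3% and 29.1% of all genes.

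**Figure D2:**
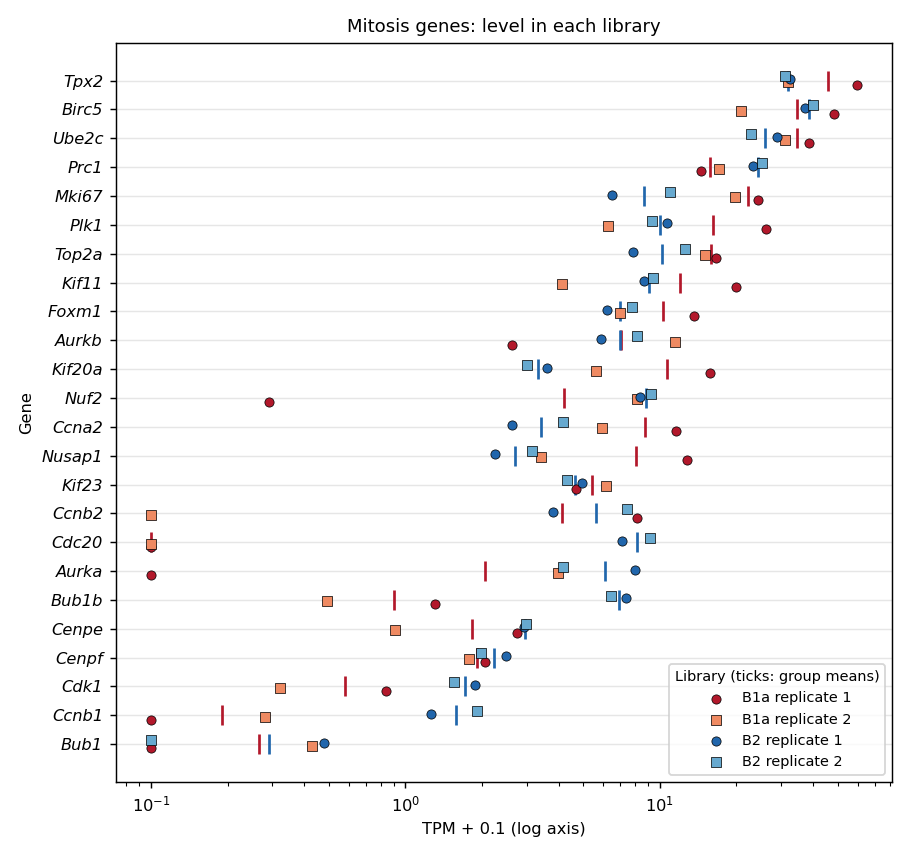
Level of each of the 24 mitosis genes in each of the 4 libraries (TPM + 0.1 on a log axis, points are libraries, vertical ticks are group means of 2 libraries). Points at 0.1 are libraries listed at 0, among them both B1a libraries for Cdc20, and the B1a points of Mki67 lie to the right of its B2 points.

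The order of levels was clear at the top and unclear below. In TPM, Tyms stood above Pcna and Pcna above all other members in both cell types, without overlap of their libraries. In B2 cells Cdt1 and then Mcm7 followed, each separate from the gene after it. In B1a cells no gene from Cdt1 at rank 3 down to Rrm1 at rank 13 was separate from the gene after it. The median replication gene measured 35.3 and 28.5 TPM in B1a and 39.4 and 38.8 TPM in B2 cells. The median mitosis gene was lower in every library, at 9.76 and 5.67 TPM in B1a and 6.22 and 7.49 TPM in B2 cells. Summed over the 24 genes, mitosis transcripts came to 322 and 200 TPM in B1a and 222 and 234 TPM in B2 cells, so that the 2 B1a libraries lay on either side of the B2 libraries.

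Across the 38 tested members, the half-width of the 95% interval ran from 0.294 to 5.44 on the log2 scale and was under 1 for 14. For Mcm3, Mcm7, Cdt1 and Tyms the whole interval lay within 1 of no change, and it did so for 0 of the mitosis genes. For the other members the interval reached a change of 2-fold or more.

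**Figure D3:**
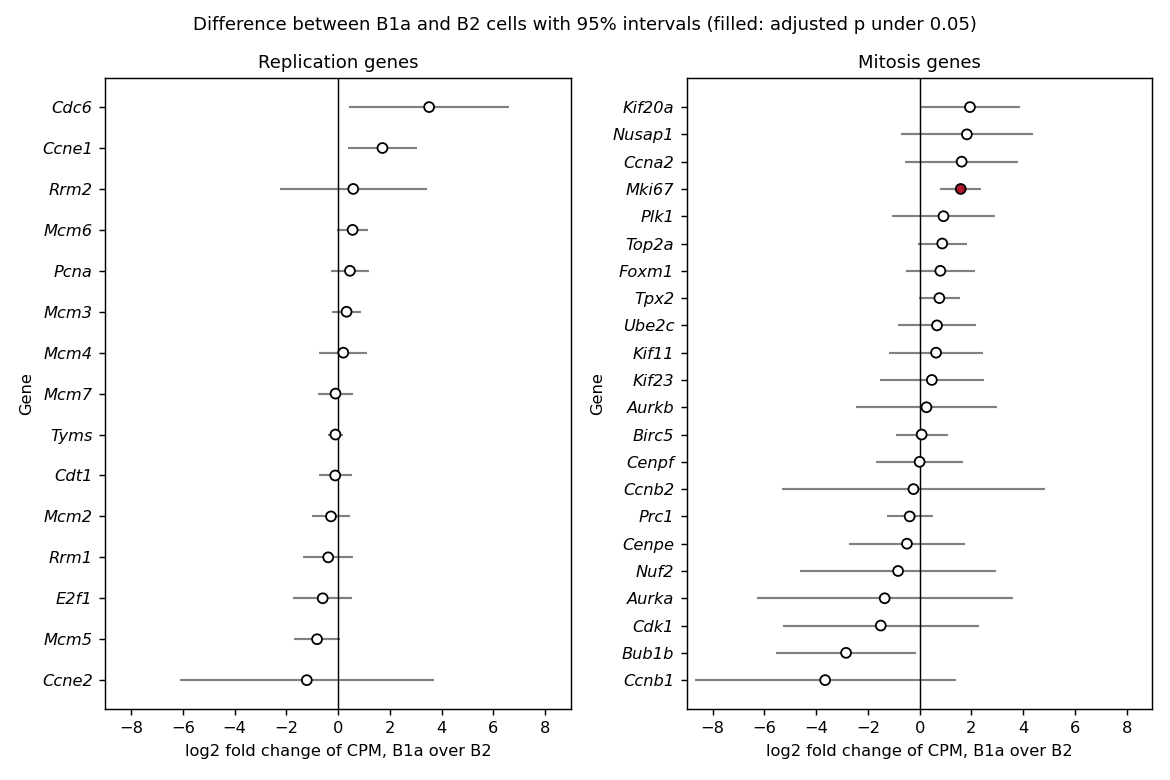
Log2 fold change of CPM, B1a over B2, with its 95% interval from edgeR's fit, for 15 replication and 22 mitosis genes (Cdc20, at 0 counts in B1a cells, is left out). The filled point is Mki67, at 1.59, and most intervals cross 0.

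The B1a replicates disagreed on which mitosis genes were high. Among members with at least 5 CPM in either B1a library, 9 of 18 mitosis genes and 4 of 14 replication genes differed over 2-fold between the B1a replicates, against 25.8% of 10568 genes with that level. Among those with at least 5 CPM in either B2 library, 0 of 17 and 1 of 12 differed so between the B2 replicates, against 3.2% of 10127 genes. The higher B1a library was replicate 1 for 7 of the 9 mitosis genes, among them Plk1, Kif11, Kif20a and Nusap1, and replicate 2 for Aurkb and Nuf2. For Mki67, Top2a, Ccne1, Mcm5, Ube2c and Cenpf the fold between the B2 replicates was the larger. At 3 counts or fewer were 7 and 4 of the 40 members in B1a replicates 1 and 2, and 0 and 1 in B2 replicates 1 and 2. Across all genes, which are not independent replicates, log2 CPM correlated at 0.836 for the B1a pair and at 0.966 for the B2 pair. B1a replicate 2 correlated at 0.858 and 0.837 with B2 replicates 1 and 2, above its value with B1a replicate 1, and B1a replicate 1 at 0.805 and 0.788. The part of the B1a cell number in this spread was not tested.

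**Figure D4:**
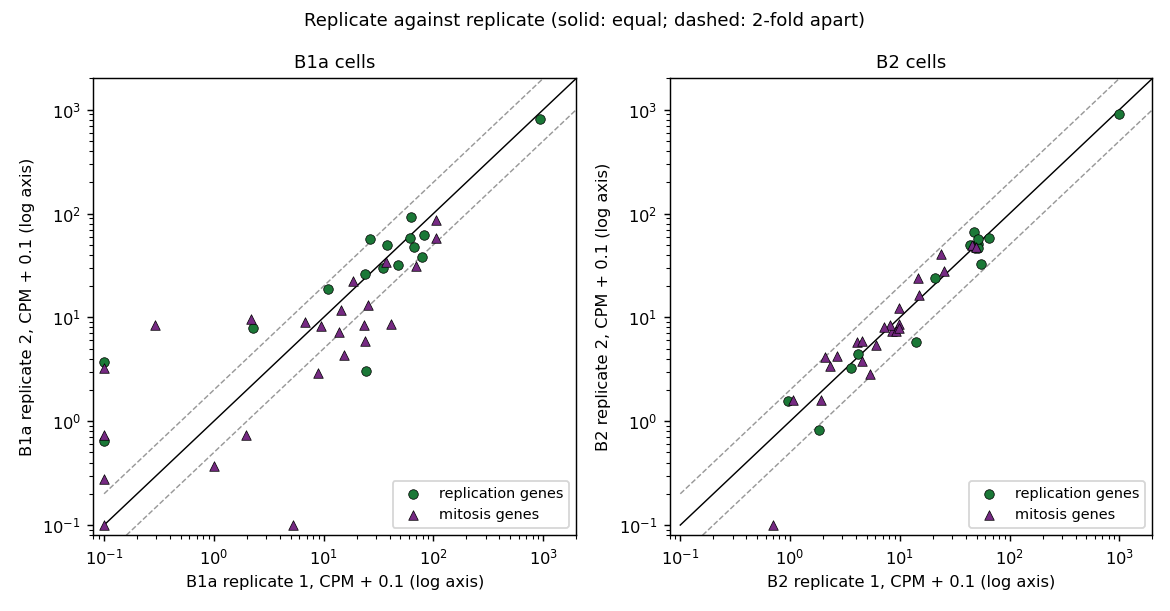
CPM + 0.1 of the 40 members in replicate 1 against replicate 2 on log axes, for B1a (left) and B2 cells (right), with the line of equal values and dashed lines at 2-fold. The B1a points scatter beyond the dashed lines, with 13 of 32 members over 2-fold apart among those with at least 5 CPM in either library, and the B2 points mostly stay between them, with 1 of 29.

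Genes of the same pathways beyond the 40, in lists also chosen with earlier results known, were then counted. Of 63 further replication genes, such as origin recognition, polymerase and clamp loader subunits, 61 were tested and 0 were called in either direction by edgeR (6 had an unadjusted p under 0.05). Their median log2 fold change was -0.26, and 45 of the 61 were negative, against 51.5% of all genes. Both B1a libraries lay below both B2 libraries for 25 of the 61 and above them for 4, against 29.1% and 25.3% of all genes. Of 81 further mitosis genes, 76 were tested and 3 were called, all higher in B1a cells, beside 4.24% of all genes. Nek2, a centrosomal kinase that splits the centrosomes before mitosis (chr1:191821449-191833049), measured 45.9 and 35.0 CPM in B1a and 1.91 and 1.31 CPM in B2 cells. It had the largest fold of the genes called higher in B1a in these lists, 25.3 (log2 fold change 4.66, SE 0.49, adjusted p = 0.00605 in edgeR's test), and was called in all 10 other fits of the 4 libraries. Wee1, the kinase that holds CDK1 inactive (chr7:110122059-110143299), measured 68.9 and 74.6 CPM in B1a and 9.54 and 11.5 CPM in B2 cells, 6.82-fold higher (log2 fold change 2.77, SE 0.28, adjusted p = 0.00557 in edgeR's test), and was called in all 10 as well. Cdc25b, the phosphatase that reverses the action of Wee1 on CDK1 (chr2:131186436-131198511), measured 198 and 175 CPM in B1a and 105 and 103 CPM in B2 cells, 1.80-fold higher (adjusted p = 0.0346 in edgeR's test). Both the kinase and the phosphatase of this switch were thus higher in B1a cells, while Cdk1 itself was at or under 1.83 CPM in every library. Exons of Nek2, Cdc25b, Cdc20, Kif20a and Ccne2 overlap an exon of another gene on the opposite strand in the GENCODE annotation, so that reads of the partner cannot be told apart where strand was not used in counting.

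Of 17 regulators of the E2F, RB and DREAM families, 1 was called (beside the same 4.24%), Tfdp1, which encodes the DNA-binding partner of the E2F factors (chr8:13338725-13378448). Tfdp1 measured 51.5 and 58.7 CPM in B1a and 17.8 and 21.3 CPM in B2 cells, 2.81-fold higher (log2 fold change 1.49, SE 0.28, adjusted p = 0.0401 in edgeR's test). The Tfdp1 and Cdc25b calls were each absent in the 2 fits on TPM and present in the other 8. Both were also lost without B2 replicate 1 (adjusted p of 0.383 and 0.21) and without B2 replicate 2 (0.203 and 0.264). Of 19 genes of APC/C and SCF degradation, 1 was called (again beside 4.24%), Fbxw7, the SCF subunit that recognises cyclin E for degradation (chr3:84814990-84979198). Fbxw7 measured 204 and 217 CPM in B1a and 80.1 and 83.7 CPM in B2 cells, 2.57-fold higher (log2 fold change 1.36, SE 0.15, adjusted p = 0.00702 in edgeR's test), and was called in all 10 other fits. The median log2 fold change was 0.03 over the further mitosis genes, -0.10 over the E2F, RB and DREAM regulators and -0.04 over the degradation genes.

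**Figure D5:**
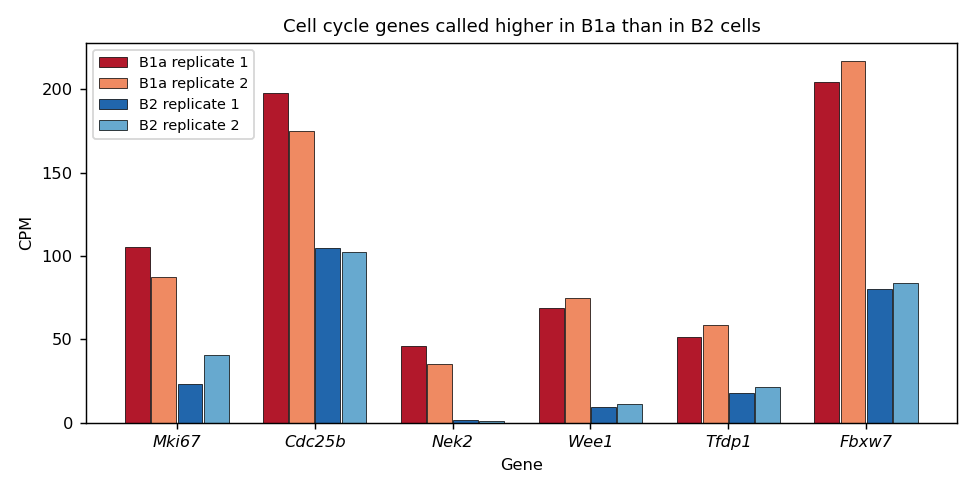
CPM of the 6 genes called higher in B1a than in B2 cells among the 40 members and the 4 wider lists, as 1 bar for each of the 4 libraries. Both B1a bars stand above both B2 bars for every gene, by the widest ratio for Nek2.

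Some markers of other cells also differed between the B1a and B2 libraries. The summed level of 9 macrophage markers was 237 and 265 CPM in B1a and 67.4 and 74.4 CPM in B2 cells. Of these, 7 of 9 were above the floor in both libraries of each group. Emr1 measured 27.7 and 39.0 CPM in B1a and 8.24 and 11.9 CPM in B2 cells. Cd68 measured 16.3 and 22.1 CPM in B1a and 8.59 and 3.35 CPM in B2 cells. C1qa measured 24.4 and 17.45 CPM in B1a and 4.6 and 6.06 CPM in B2 cells. Lyz2, C1qb and C1qc were higher in B1a cells too, without overlap, while the groups of Csf1r overlapped. Timd4 and Gata6, defining markers of large peritoneal macrophages, were at or under 0.54 CPM. Mast cell markers summed to 46.1 and 16.5 CPM in B1a and 1.48 and 0.941 CPM in B2 cells, with 5 of 6 and 0 of 6 above the floor in both libraries and Fcer1a at 0 in all. Germinal center B markers were lower in B1a (44.8 and 32.7 CPM, 2 of 8 above the floor in both libraries) than in B2 cells (153 and 174 CPM, 7 of 8), mostly through Bcl6. The sums of T cell markers (68.8 to 108 CPM), erythroid markers (108 to 565 CPM) and pro-B and pre-B markers (6.24 to 19.1 CPM) overlapped between the groups. Above the floor in both B1a libraries were 4 of 7 T cell, 5 of 9 erythroid and 2 of 6 pro-B and pre-B markers. In both B2 libraries these were 7, 8 and 4. Cd4, Klf1 and Dntt were at 0 in both B1a libraries. Of the T cell markers, Cd3d measured 14.6 and 18.3 CPM in B1a and 15.7 and 15.4 CPM in B2 cells. Lck measured 56.47 and 45.15 CPM in B1a and 44.5 and 39.73 CPM in B2 cells. Cd8a and Cd3g were uneven between the B1a replicates. Cd8a measured 23.9 and 4.32 CPM in B1a and 15.0 and 16.2 CPM in B2 cells. Cd3g measured 10.4 and 0.18 CPM in B1a and 0.867 and 2.06 CPM in B2 cells. The hemoglobin gene Hba-a2 was called higher in B1a (35.6 and 96.6 CPM) than in B2 cells (5.06 and 7.46 CPM). Lyz2 of the macrophage and Cma1 of the mast cell markers were called higher in B1a cells as well. Plasma cell markers, led by Irf4, summed to 583 and 712 CPM in B1a and 436 and 480 CPM in B2 cells, with Tnfrsf17 at 0 in every library, and Prdm1 was called higher in B1a cells. Sdc1 of the same list measured 0 and 8.27 CPM in B1a and 13.4 and 25.2 CPM in B2 cells, and Slamf7 overlapped between the groups. Neutrophil markers were at 0 in B1a cells, and mesothelial markers were at or under 0.0867 CPM in every library. The part of these cells in the values of Mki67, Nek2, Wee1 and the other members was not tested.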

How the data were processed

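RNA-Seq libraries of wild-type B1a (n = 2) and B2 cells (n = 2) were analysed. Reads were mapped by the authors to mm10, and RefSeq genes were quantified by RSEM (1.2.29 per the submitters' processing notes, another version in the methods). bcl2fastq is also named. The deposited expected count of each of the 21970 entries is not normalized, and RSEM divides a read that matches several entries among them. The deposited TPM values were scaled by RSEM to 1000000 per library. The deposited posterior standard deviation of each count, a signal value, was used to describe uncertain counts. FPKM was not used. The methods name a stranded library kit (KAPA), and the labels differ from the methods in the kit. The strand setting of the counting is not given in the sources used here, so reads from antisense genes cannot be told apart.

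Per symbol, expected counts were added up and rounded to whole numbers. Low genes were removed by filterByExpr, TMM factors were applied, and groups were compared in edgeR 4.0.16 (quasi-likelihood, R 4.3.3, Benjamini-Hochberg adjustment, threshold 0.05, no fold minimum), without a replicate block. Standard errors and 95% intervals were derived from the F statistic. The methods name EBSeq, which was not run. CPM uses TMM-scaled totals. P-values measure the spread between the libraries of a group, which came from separate mice by the methods, although no label ties a library to a mouse. Alternatives were DESeq2 1.42.0, limma-voom (limma 3.58.1) with and without cell type weights, upper quartile factors, 2 other count filters (at least 10 counts in every library, or 1 count in any), limma on log2(TPM + 1) and log2(TPM + 0.1) where the mean TPM was 1 or more, a replicate block, unsummed entries and each library left out in turn. The code was tested on simulated data. Promoters are RefSeq windows of GRCm38.p6, and 8 members (Ccne2, Ccna2, Aurkb, Tpx2, Kif20a, Foxm1, Gins2 and Mcm4) had no window.

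The 40 members and the other lists were chosen with earlier results of these data known. All 40 members are given, with the called genes of each other list (at most 5 per list and direction) and marker lists as sums.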

Additional observations from a re-analysis of the deposited data

How the results depend on the processing

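With 2 libraries per group, counts of called members were small and moved with the test. Replication members called numbered 0 with edgeR, 2 with DESeq2, 1 with limma-voom, 1 with limma-voom weighted by cell type, and 1 with the replicate block. Mitosis members called numbered 1 with edgeR, 2 with DESeq2, and 0 with upper quartile factors, limma on log2(TPM + 1), limma on log2(TPM + 0.1) and unsummed entries. Of the further replication genes 2 were called with the replicate block, and of the further mitosis genes 8 with DESeq2 and 5 with weighted limma-voom, against 3. Of the E2F, RB and DREAM regulators 3 were called with weighted limma-voom and 3 with the replicate block, and 0 in both TPM fits, against 1. Of the degradation genes 2 were called with DESeq2 and with weighted limma-voom, against 1. No source pairs the replicate numbers of the groups. Deviations of same-numbered libraries from their group means correlated at -0.03. With 2 libraries per group the crossed value must be the same number with the opposite sign, so this correlation cannot settle a pairing. The replicate block called 889 genes higher and 592 lower in B1a, against 512 and 181 without it.

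Leaving out 1 library gave 0 to 8 called replication members, 0 to 14 mitosis members, 0 to 25 further replication genes, 2 to 34 further mitosis genes, 0 to 7 regulators and 1 to 12 degradation genes. The highest counts came without B1a replicate 2, where 48.9% of all genes were called, then without B1a replicate 1 (4, 6, 17, 18, 3 and 5), where 31% were. In both fits the lone library is assumed to vary like the B2 libraries. Mki67 was not called without B2 replicate 1, and Tfdp1 and Cdc25b not without either B2 replicate.

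The replication median of -0.10 was -0.17 with upper quartile factors, 0.043 with at least 10 counts in every library, -0.35 in both TPM fits, and -0.088 to -0.011 with 1 library left out. The mitosis median of 0.27 lay between -0.11 (limma on log2(TPM + 0.1)) and 0.71 (at least 10 counts in every library), was 0.006 with the replicate block, and ran from -0.095 without B1a replicate 1 to 0.55 without B1a replicate 2. The TPM fits moved the median of all genes to -0.30 and -0.32, so that the replication median stood at -0.05 and -0.03 and the mitosis median at 0.24 and 0.21 relative to it. They also split the calls as 266 higher and 233 lower, and 196 higher and 163 lower, in B1a. Signs of uncalled members turned for Mcm4 (-0.13 and -0.14 in the TPM fits), for Aurkb (-0.18 and -0.17 in the limma-voom fits, -0.24 and -0.33 in the TPM fits, -0.087 with the replicate block), for Birc5 in the same order (-0.049 and -0.048, -0.27 and -0.28, -0.035), and for Cenpf, at 0.001 by edgeR (-0.070 with upper quartile factors, -0.002 with at least 10 counts in every library, -0.155 and -0.221 in the TPM fits). With 1 library left out, log2 fold changes took both signs, with ranges of -0.43 to 0.63 for Mcm4, -0.31 to 0.076 for Mcm7, -0.37 to 0.10 for Cdt1, -1.04 to 0.061 for Rrm1, -0.63 to 1.23 for Rrm2, -8.40 to 0.75 for Ccnb2, -1.23 to 0.97 for Aurkb, -0.42 to 1.61 for Plk1, -0.90 to 1.36 for Kif11, -1.55 to 0.11 for Cenpe, -0.63 to 0.55 for Birc5, -0.16 to 0.17 for Cenpf and -5.33 to 0.13 for Nuf2, turning without a B1a replicate in every case and for Ccnb2 and Cenpf also without B2 replicate 2. For these the cause was not tested. Across the other alternatives, 344 of the members' fold changes kept direction and side of the threshold, 6 gained and 4 lost a call, and 16 turned.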
